A study of Mus musculus with 2 samples.

Results

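The genes described here are 8 members of the IL-6 cytokine family and its signalling path, out of 32589 genes listed for each library, namely the ligands *Il6*, *Osm* and *Lif*, the receptor subunits *Il6ra*, *Il6st* and *Osmr*, and the signalling genes *Stat3* and *Socs3*. They were found by symbol, and their UMIs (unique molecular identifiers, which count captured transcripts) were summed per library and cell class. The genes were chosen by earlier values of this same contrast between the libraries, namely their UMIs per class, so their differences between the libraries are given as descriptions without a test. The scRNA-Seq data came from mouse livers bearing CCA (cholangiocarcinoma), a bile duct cancer raised by injecting plasmids for an activated Notch receptor (NICD) and a membrane-bound AKT (myr-AKT) into the tail vein under pressure. Both libraries were of the shYT genotype, in which doxycycline, through an rtTA3 transactivator under a CAG promoter, switches on shRNAs that target *Yap1* and *Wwtr1*, which encodes TAZ, from day 25. One library was from animals given PBS, and the other from animals given an antibody against mouse PD-1 (clone RMP1-14) on days 26, 29 and 32, with livers taken on day 33. The labels do not give the number, sex or age of the animals or the shRNA line. Because both libraries carry the shRNAs, neither is a control for YAP/TAZ depletion and the levels of the targeted genes check no label here.

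IL-6, OSM and LIF are secreted cytokines that act through gp130, the signal-transducing subunit encoded by *Il6st*. IL-6 first binds its own receptor, encoded by *Il6ra*, which can also be shed and serve cells that make none, OSM binds the receptor encoded by *Osmr* together with gp130, and LIF uses the related subunit encoded by *Lifr*. The bound complex activates JAK kinases and the transcription factor STAT3, which switches on genes such as *Socs3*, whose product binds gp130 and damps the signal. In the liver IL-6 is best known as a product of Kupffer cells, the resident macrophages, and as the inducer of acute phase proteins in hepatocytes.

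In mm10 coordinates (GENCODE vM21), *Il6* lies on chromosome 5 from 30013114 to 30019981 on the forward strand. *Osm* (chromosome 11, 4236420 to 4241026, forward) and *Lif* (chromosome 11, 4257557 to 4272514, forward) are neighbours separated by 16530 bases. *Stat3* (chromosome 11, 100885098 to 100939540, reverse) and *Socs3* (chromosome 11, 117966079 to 117970047, reverse) are on the same chromosome. The receptor genes are on chromosome 3 (*Il6ra*, 89864059 to 89913196, reverse), chromosome 13 (*Il6st*, 112464070 to 112510086, forward) and chromosome 15 (*Osmr*, 6813577 to 6874969, reverse).

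The stretch before the start of *Il6*, the gene with the largest ratio of the 8, and the matched stretches before *Lif* and *Socs3* are shown because motifs of the factors known to drive these genes could be looked for in them. The sequences are of RefSeq (GRCm38.p6), where 7 of the 8 members had an entry and *Osm* had none, and each runs 5′ to 3′ along the strand of its gene. Capitals mark matches on either strand to the NF-κB motif (GGGA and TTCC with any 2 bases between them), the STAT motif TTCNNNGAA, the AP-1 motif TGANTCA or the C/EBP motif TTGCNNAA.
Il6, chr5:30012864-30013113, forward strand: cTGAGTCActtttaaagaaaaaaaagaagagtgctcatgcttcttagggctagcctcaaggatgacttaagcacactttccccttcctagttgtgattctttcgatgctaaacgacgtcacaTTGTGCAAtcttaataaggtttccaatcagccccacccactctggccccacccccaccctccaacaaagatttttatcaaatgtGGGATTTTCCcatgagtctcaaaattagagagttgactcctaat
Lif, chr11:4257329-4257358, forward strand: ccagtcagctgTGACTCAggccatagtggc
Socs3, chr11:117969501-117969530, reverse strand: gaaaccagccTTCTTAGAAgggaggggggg
In the 250 bases before *Il6* the NF-κB match begins 44 bases, the C/EBP match 128 bases and the AP-1 match 249 bases before the start. Distances are counted from the RefSeq start, which for *Lif* and *Socs3* is not the GENCODE start given above. The same windows held an AP-1 match 228 bases before *Lif* and a STAT match 154 bases before *Socs3*, and none of the 7 held the cyclic AMP motif TGACGTCA. Of 32851 promoters of the same length, 1.21% held the NF-κB motif, 7.02% the STAT motif, 6.75% the AP-1 motif, 9.56% the C/EBP motif and 1.55% the cyclic AMP motif. A match is a description of these letters and shows no binding. The *Socs3* stretch lies within the span GENCODE gives for the gene.

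The libraries held 19397 (PBS) and 19451 (anti–PD-1) barcodes with 121713441 and 100807037 UMIs, of which 15531 (80.1%) and 16360 (84.1%) cells were kept, with a median of 3159 and 2990 UMIs. Among kept cells *Xist*, expressed in female cells, had 18452 UMIs in the PBS and 11 in the anti–PD-1 library, and Y-linked genes had 3113 and 15323. The PBS library thus held both kinds and the anti–PD-1 library almost only Y-linked UMIs, so the sex of the animals and the treatment cannot be told apart. The libraries shared 219 barcodes, and no 2-fold call from a finite ratio changed without them. Cells were placed in 18 classes by UMIs of marker genes, 15 of which had at least 50 cells in each library, and the genes that stood out in each class included its own markers. The monocyte gate also took in early myeloid cells, as *Mpo*, *Prtn3* and *Elane* were among its leading genes. Levels are CPM, the UMIs of a gene scaled to a common total of UMIs of the class. All intervals are 95% intervals of counting error and say nothing of the spread between animals, since each group was 1 library. Those of CPM and ratios take UMIs as independent, so they are too narrow where a few cells hold most UMIs. A ratio is anti–PD-1 over PBS, a gene counted as measured in a class with at least 20 UMIs over both libraries, and 2-fold marks a difference of size. A gene nearly absent from 1 library can pass this limit only through the other, and its ratio can then lie in 1 direction only.

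*Il6* was the ligand that differed most. In all kept cells it had 216 UMIs in the PBS and 4545 in the anti–PD-1 library, or 2.73 (2.38 to 3.12) and 58.5 (56.8 to 60.2) CPM, a ratio of 21.4 (18.7 to 24.7). Most of these UMIs came from macrophages, monocytes and Kupffer cells, which held 70.8% of the library's *Il6* UMIs with PBS and 83.6% with anti–PD-1.

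In the macrophage class (3771 and 2275 cells), *Il6* had 37 UMIs (1.16 CPM, 0.819 to 1.60) with PBS and 1995 UMIs (111 CPM, 106 to 116) with anti–PD-1, a ratio of 95.4 (69.0 to 136). A UMI of *Il6* was found in 0.769% and 13.1% of these cells, and after thinning every cell to 1000 UMIs in 0.0275% of 3634 and 5.04% of 1964 cells, with median depths before thinning of 7894 and 7137 UMIs. The PBS value was thus near zero, and the ratio depends on the few UMIs counted there. Over the alternative settings its log2 value ranged from 4.23 (5 CPM added) to 7.65, against 6.58.

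Kupffer cells (553 and 1274 cells) already had *Il6* with PBS, at 111 UMIs (22.5 CPM, 18.5 to 27.1), and had 1709 UMIs (153 CPM, 146 to 161) with anti–PD-1, a ratio of 6.83 (5.63 to 8.35). The share of Kupffer cells with a UMI was 12.1% and 32.2%, or 3.35% and 11.9% after thinning, and the median depths were 9184 and 8785.5 UMIs. The Kupffer class was the source of 51.4% of all *Il6* UMIs with PBS and of 37.6% with anti–PD-1, while the macrophage class was the source of 17.1% and 43.9%.

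Monocytes (535 and 389 cells) had 5 UMIs (1.38 CPM) with PBS and 94 UMIs (36.8 CPM, 29.7 to 45.0) with anti–PD-1, a ratio of 26.6 (11 to 84.0). In the 52 and 222 monocytes that held Y-linked UMIs but none of *Xist*, the log2 ratio of *Il6* was 1.77 in place of 4.74. All 5 PBS UMIs of the class lay in 2 cells, so this value depends on whether those cells were among the 52. CAFs (443 and 176 cells), the fibroblasts of the tumor, had 16 UMIs (6.85 CPM, 3.92 to 11.1) and 106 UMIs (111 CPM, 90.6 to 134), a ratio of 16.1 (9.49 to 29.3). The CAF value rested on few cells, as 9 of 176 held 85.8% of its UMIs and 1 cell held 25. Beside it, summed macrophage markers in the CAF class were at 421 CPM with PBS and 684 CPM with anti–PD-1 (5 of 7 markers higher), neutrophil markers at 367 and 1036 CPM (8 of 9 higher) and Kupffer markers at 87.4 and 254 CPM (6 of 6 higher), and their part in the *Il6* value was not tested.

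T and NK cells, which are not known as large sources of *Il6*, were taken as the reference for what RNA from other cells may give, since no empty barcodes were measured. In the PBS library T, B, NK and tumor/biliary cells had 1, 1, 0 and 1 UMIs. In the anti–PD-1 library *Il6* was at 5.69 CPM in T cells (90 UMIs), 8.66 CPM in B cells (46 UMIs), 8.40 CPM in NK cells (25 UMIs) and 6.67 CPM in tumor/biliary cells (20 UMIs), and after thinning 0.585% to 1.18% of these cells had a UMI, at median depths from 1481 UMIs in tumor/biliary to 3576.5 in T cells. Neutrophils had 0 UMIs with PBS and 45 with anti–PD-1 (6.80 CPM, 0.734% of thinned cells), which is inside that range and at least 4.51-fold above the limit of 3 UMIs that a count of 0 allows. Endothelial cells, at 1 and 4 UMIs (0.378 and 8.19 CPM), were inside its range of CPM, and 0 of their 91 thinned anti–PD-1 cells had a UMI. *Il6* in classes at or below the share in NK cells (1.18%) was not read as expression, and whether it came from free RNA was not tested. Macrophages (5.04% of thinned cells, 4.12% to 6.10%) and Kupffer cells (11.9%, 10.1% to 14.0%) stood above it, clear of the NK interval of 0.541% to 2.23%. Monocytes (3.25%, 1.69% to 5.61%) and CAFs (4.38%, 1.62% to 9.29%) had higher shares, but their intervals overlapped the NK interval. Mature dendritic cells (3.28% of 61, 0.400% to 11.3%) and plasma cells (2.41% of 83, 0.293% to 8.43%) rested on 2 cells each and could not be told apart from NK cells. The cDC2, with 3 UMIs (1.35 CPM) and 21 UMIs (14.5 CPM), had 1.18% (0.143% to 4.19%) of thinned cells with a UMI, no more than NK cells.

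Mature dendritic cells were the only compared class measured for *Il6* in which it was lower with anti–PD-1, at 16 UMIs (45.0 CPM, 25.7 to 73.1) against 7 UMIs (17.5 CPM, 7.04 to 36.1), a ratio of 0.389 (0.135 to 1.00) from 77 and 63 cells. Of 11 classes in which *Il6* was measured, it was at least 2-fold higher in 10 and at least 2-fold lower in 1, and 6 of the 10 were the T, B, NK, tumor/biliary, neutrophil and cDC2 classes at or below that reference. Among the 10, only macrophages (37) and Kupffer cells (111) reached 20 UMIs with PBS. The others were measured only through their anti–PD-1 UMIs, so the count of 10 is not read as a result.

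**Figure D1:**
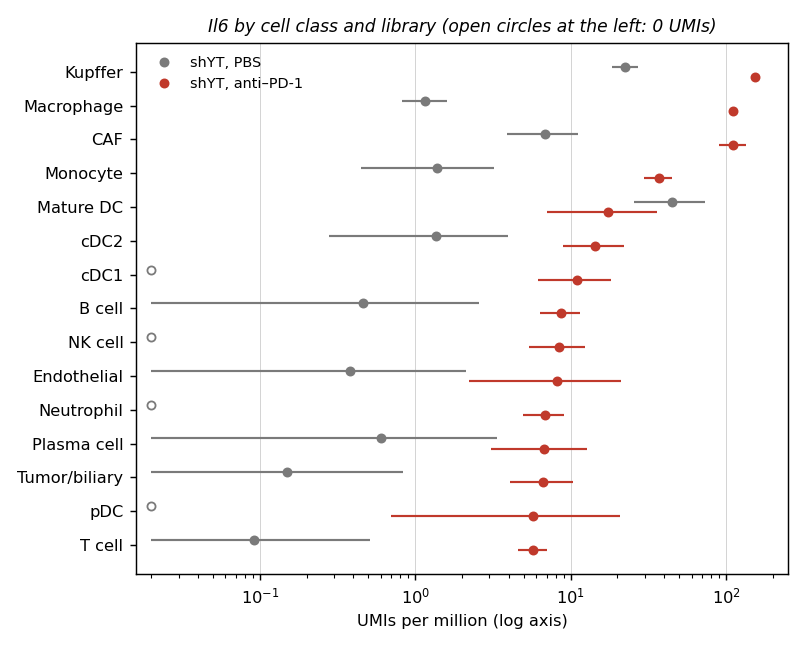
*Il6* CPM (horizontal log axis) in each of 15 cell classes (rows) for the PBS (grey) and anti–PD-1 (red) libraries, with 95% Poisson intervals as bars and open circles at the left edge for 0 UMIs. With anti–PD-1, Kupffer cells (153), macrophages (111), CAFs (111) and monocytes (36.8) sit to the right of all other classes, and mature dendritic cells are the class where the grey point (45.0) lies to the right of the red one (17.5).

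*Il6* was unevenly spread among macrophages. With anti–PD-1, the top 5% of macrophages (114 cells) held 87.5% of the class's *Il6* UMIs and a single cell held 84, whereas the top 5% of Kupffer cells held 46.9%. Many of these macrophages also carried *Prg4*, the gene of lubricin, and a split at 10 or more *Prg4* UMIs, chosen after these values had been seen, separated 11 PBS and 64 anti–PD-1 macrophages (0.292% and 2.81% of the class). A further 27 and 93 macrophages had 1 to 9 *Prg4* UMIs and 3733 and 2118 had none. The split was made on the UMIs of this gene alone and was not used to name a cell type.

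The 64 macrophages with at least 10 *Prg4* UMIs held 1048 *Il6* UMIs (1120 CPM), which was 52.5% of the *Il6* of the class and 23.1% of that of the whole library, and 58 of them (90.6%, 80.7% to 96.5%) had an *Il6* UMI. The 11 such cells with PBS held 1 *Il6* UMI (9.92 CPM), a ratio of 113 (20.2 to 4463). Their median depth was 7702 UMIs with PBS and 14541.5 with anti–PD-1. In the other macrophages (3760 and 2211 cells) *Il6* had 36 UMIs (1.13 CPM) and 947 UMIs (55.6 CPM), a ratio of 49.0 (35.1 to 70.3), and 0.745% and 10.9% of cells had a UMI. The difference in *Il6* was thus still present in the other macrophages. On the *Prg4* side the ratio rested on 1 PBS UMI and on a cut chosen after the values had been seen.

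In the anti–PD-1 library, these 64 macrophages also stood apart from the other macrophages in *Slpi* (20877 against 181 CPM), the gene of a secreted protease inhibitor, and in the acute phase gene *Saa3* (10750 against 138 CPM). *Alox15*, of a lipoxygenase (3802 against 6.63 CPM), *Serpinb2*, of the plasminogen activator inhibitor PAI-2 (3172 against 13.1 CPM), and *Gata6*, a transcription factor (94.0 against 3.46 CPM), differed in the same direction. Of 7 macrophage markers 6 were lower in them, among them *C1qa* (1576 against 4388 CPM), *Trem2* (75.9 against 381 CPM) and *Ms4a7* (24.6 against 759 CPM), and *Adgre1* was higher (1304 against 484 CPM). Of Kupffer markers they had less *Clec4f* (70.5 against 995 CPM), *Folr2* (16 against 95.2 CPM) and *Vsig4* (260 against 431 CPM) but more *Marco* (888 against 147 CPM) and *Timd4* (127 against 72.2 CPM), with *Cd5l* at 1090 against 952 CPM. They had less *H2-Aa* and *Cd74* of MHC class II presentation (407 against 5835 and 1888 against 23831 CPM). *Prg4*, *Alox15*, *Icam2* and *Gata6* are known as genes of macrophages resident in body cavities, but the cells were given no name here. All 11 and all 64 lay in 1 cluster of an unsupervised (Leiden) clustering made without the 8 members.

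The largest macrophage cluster differed between the libraries, with 71.5% of the PBS macrophages in one cluster and 38.5% of the anti–PD-1 macrophages in another. Clusters with over 90% of their cells from 1 library held 73.0% of the PBS and 23.1% of the anti–PD-1 macrophages. The largest part of the class's *Il6* with anti–PD-1 lay in an unnamed cluster, the one that held the cells with *Prg4*, where 33 PBS and 331 anti–PD-1 macrophages had 1 UMI (5.44 CPM) and 1255 UMIs (865 CPM). In the cluster with the most anti–PD-1 macrophages (111 and 875 cells) *Il6* had 0 and 147 UMIs (17.8 CPM). In the cluster that held 2697 PBS and 179 anti–PD-1 macrophages it had 19 UMIs (0.796 CPM) and 119 UMIs (62.9 CPM), and in the main Kupffer cluster (513 and 993 gated Kupffer cells) it had 111 UMIs (23.1 CPM) and 1663 UMIs (155 CPM). Within the macrophage class, summed Kupffer markers were at 1424 CPM with PBS and 2680 CPM with anti–PD-1 (6 of 6 higher), neutrophil markers at 477 and 1004 CPM (9 of 9 higher) and monocyte markers at 809.8 and 1337 CPM (4 of 6 higher). In macrophages without a *Clec4f* UMI (2869 and 1021 cells) the log2 ratio of *Il6* was 7.65, against 6.58 in the whole class. In macrophages that held Y-linked UMIs but none of *Xist* (388 and 1196 cells) it was 6.84. No check of the sex of these cells was made.

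**Figure D2:**
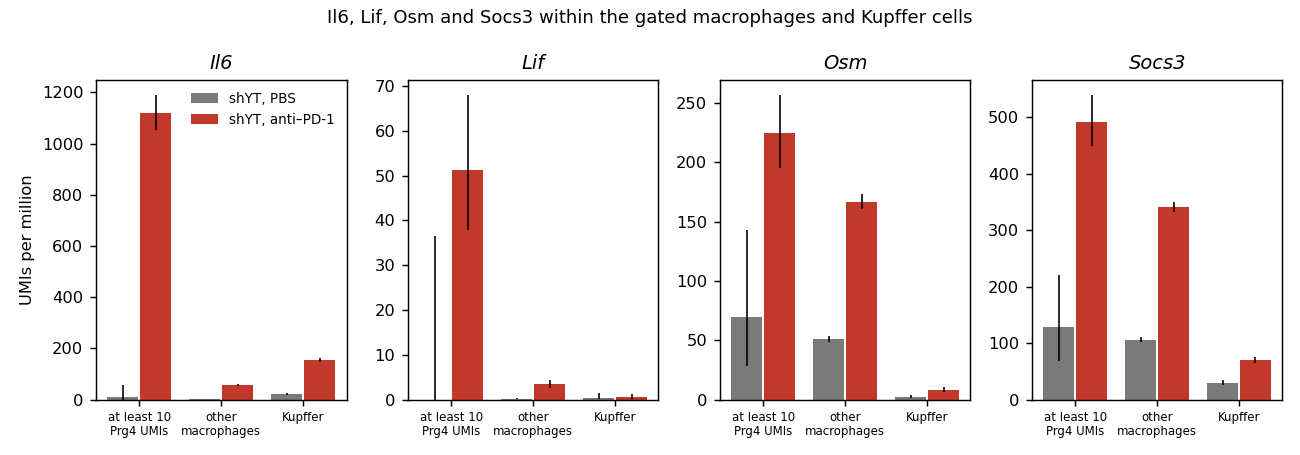
*Il6*, *Lif*, *Osm* and *Socs3* CPM (vertical axes from 0) in gated macrophages with at least 10 *Prg4* UMIs, other macrophages and Kupffer cells, for the PBS (grey) and anti–PD-1 (red) libraries, with 95% Poisson intervals. The 64 anti–PD-1 macrophages with *Prg4* reach 1120 for *Il6* and 51.3 for *Lif*, whereas *Osm* (224 against 167) and *Socs3* (493 against 341) differ less between them and the other anti–PD-1 macrophages.

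*Osm*, which macrophages and neutrophils are known to make, was also higher with anti–PD-1, from a base that was not near zero. In all kept cells it had 2359 UMIs (29.8 CPM) with PBS and 6872 UMIs (88.5 CPM) with anti–PD-1, a ratio of 2.97 (2.83 to 3.11). In macrophages it had 1620 UMIs (50.9 CPM, 48.5 to 53.4) and 3054 UMIs (169.8 CPM, 164 to 176), a ratio of 3.34 (3.14 to 3.55). In monocytes it had 197 UMIs (54.4 CPM) and 659 UMIs (258 CPM), a ratio of 4.74 (4.04 to 5.59), and in the 52 and 222 monocytes with Y-linked UMIs and none of *Xist* the log2 ratio of *Osm* was 1.15 in place of 2.25.

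In neutrophils *Osm* had 233 UMIs (117 CPM, 103 to 133) with PBS and 2031 UMIs (307 CPM, 294 to 321) with anti–PD-1, a ratio of 2.62 (2.29 to 3.02), and 8.63% and 21.7% of thinned neutrophils had a UMI. The neutrophil class itself went from 1184 cells (7.62% of kept cells) to 2808 cells (17.2%). Its part of all *Osm* UMIs was 9.88% with PBS and 29.6% with anti–PD-1, and that of macrophages was 68.7% and 44.4%. The anti–PD-1 library therefore differed both in the *Osm* level per class and in the classes that held it.

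The sides of the *Prg4* split differed little in the *Osm* ratio, which was 3.23 (1.54 to 8.14) in macrophages with at least 10 *Prg4* UMIs (69.4 and 224 CPM) and 3.28 (3.09 to 3.49) in the others (50.8 and 167 CPM). Kupffer cells had little *Osm*, at 11 UMIs (2.23 CPM) and 94 UMIs (8.44 CPM). Their anti–PD-1 level was that of B cells (8.85 CPM) and below that of T cells (12.9 CPM), which had 7.88 and 9.55 CPM with PBS. The log2 ratio in Kupffer cells was 1.92 (a ratio of 3.79, 2.02 to 7.85) and fell short of 2-fold with Leiden clusters (0.67), the stricter gate (0.37) and 5 CPM added (0.89). The dendritic cells stood between Kupffer cells and macrophages, with cDC2 at 9.47 and 24.8 CPM, cDC1 at 4.05 and 20.7 CPM and mature dendritic cells at 14.1 and 52.5 CPM. NK cells, at 20.1 and 26.9 CPM, were above cDC1 and cDC2 in both libraries. Of 11 classes with *Osm* measured, it was at least 2-fold higher in 8 and lower in none. Kupffer cells, cDC1 and mature dendritic cells were measured only through their anti–PD-1 UMIs, and tumor/biliary cells only through both libraries together. The counts of higher and lower classes are thus not read as a result. The 8 include mature dendritic cells, where the log2 ratio of 1.90 was 0.89 with a mean over cells, Kupffer cells, and tumor/biliary cells (1.64 and 6 CPM), and in the latter the log2 ratio of 1.87 was 0.73 with 5 CPM added and 0.021 in cells with Y-linked UMIs and none of *Xist* (82 and 254 cells).

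*Lif*, a cytokine known for keeping mouse embryonic stem cells undifferentiated, was sparse, with 119 UMIs (1.50 CPM) with PBS and 264 UMIs (3.40 CPM) with anti–PD-1 in all kept cells. With PBS its main source was the tumor/biliary class, at 48 UMIs (7.15 CPM, 5.27 to 9.48) and 40.3% of all *Lif* UMIs. With anti–PD-1 that class had 13 UMIs (4.34 CPM, 2.31 to 7.41) and 4.92%. The ratio of 0.606 had an interval of 0.301 to 1.14, so a difference in tumor/biliary cells was not detectable at this depth, and its sign depended on the cells kept. Macrophages had 5 UMIs (0.157 CPM) and 107 UMIs (5.95 CPM), a ratio of 37.9 (15.7 to 119) that was 2.12 with 5 CPM added, 10.3 with the stricter gate and 12.6 in cells with Y-linked UMIs and none of *Xist*. They held 4.20% and 40.5% of all *Lif* UMIs.

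The *Prg4* split divided *Lif* as it did *Il6*. With anti–PD-1, 16 of the 64 macrophages with at least 10 *Prg4* UMIs held 48 *Lif* UMIs (51.3 CPM), 44.9% of those of the class, with 17 in 1 cell, and the 11 such PBS cells held 0. The other macrophages had 5 UMIs (0.158 CPM) and 59 UMIs (3.46 CPM), a ratio of 22.0 (8.90 to 70.1). Monocytes had 5 UMIs (1.38 CPM) and 20 UMIs (7.83 CPM), a ratio of 5.67 (2.06 to 19.3) that was 1.01 on the log2 scale in place of 2.50 with 5 CPM added to both libraries, and T cells were at 2.66 CPM (29 UMIs) and 2.91 CPM (46 UMIs). *Lif* was measured in 4 classes and was at least 2-fold higher in the 2 named, macrophages and monocytes. Each of the 2 had 5 UMIs with PBS and so was measured only through its anti–PD-1 UMIs.

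**Figure D3:**
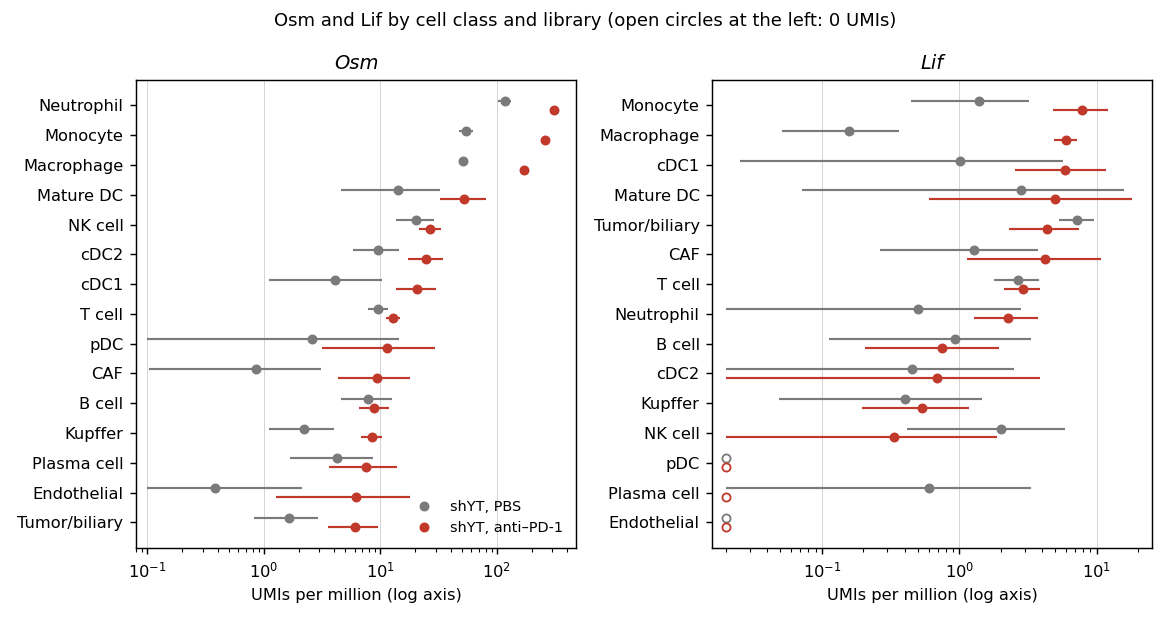
*Osm* (left) and *Lif* (right) CPM (log axes) in 15 cell classes (rows) for the PBS (grey) and anti–PD-1 (red) libraries, with 95% Poisson intervals and open circles for 0 UMIs. *Osm* is highest in neutrophils (117 and 307), monocytes (54.4 and 258) and macrophages (50.9 and 169.8), and for *Lif* only the intervals of macrophages and monocytes lie apart.

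In single macrophages of the anti–PD-1 library, thinned to 1000 UMIs each, the 99 cells with an *Il6* UMI were compared with the 1865 without. *Cxcl1*, a neutrophil chemokine, was found in 43.4% (33.5% to 53.8%) of the former and 12.4% (10.9% to 14.0%) of the latter. *Nfkbiz*, whose product is needed for *Il6* transcription, was found in 61.6% and 33.9%, *Ptgs2* in 28.3% and 11.4%, *Tnf* in 33.3% and 16.5% and *Il1a* in 24.2% and 9.01%. *Lif* was found in 5.05% (1.66% to 11.4%) and 0.268% (0.0871% to 0.625%). *Osm* (15.2% and 12.5%), *Socs3* (30.3% and 20.8%), *Stat3* (11.1% and 12.2%) and *Il1b* (43.4% and 39.8%) differed less. The macrophage marker *C1qa* was found in 75.8% (66.1% to 83.8%) and 90.5% (89.1% to 91.8%). The cells with *Prg4* were not set apart in these shares, and their part in them was not tested. Cells of 1 library are not replicates, so these shares describe 1 sample.

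*Il6ra*, the receptor subunit specific to IL-6, was found mainly in myeloid cells and was lower with anti–PD-1 in most of them. Neutrophils had 487 UMIs (245 CPM, 223 to 267) with PBS and 727 UMIs (109.9 CPM, 102 to 118) with anti–PD-1, which was 2.23-fold lower (1.98 to 2.50). A UMI was found in 20.4% and 10.2% of thinned neutrophils. With median-of-ratios scaling, the log2 ratio of *Il6ra* in neutrophils was -0.80 in place of -1.15, and in the 75 and 1042 neutrophils with Y-linked UMIs and none of *Xist* it was -0.36, both short of 2-fold.

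Macrophages had 3861 UMIs (121 CPM, 118 to 125) and 1621 UMIs (90.2 CPM, 85.8 to 94.6) of *Il6ra*, a ratio of 0.743 (0.701 to 0.788). Monocytes (189 and 126 CPM), Kupffer cells (132 and 103 CPM), cDC2 (148 and 77.1 CPM), cDC1 (98.1 and 67.1 CPM) and B cells (44.5 and 26.2 CPM) also had the lower level with anti–PD-1, so the interval of the ratio lay below 1 in 7 of 15 classes. T cells were at 41.7 CPM (37.9 to 45.7) and 42.5 CPM (39.4 to 45.9). CAFs were the class where *Il6ra* was at least 2-fold higher, from 26 UMIs (11.1 CPM) and 22 UMIs (23.0 CPM), a ratio of 2.06 (1.11 to 3.78) just past the 2-fold line. It fell short of 2-fold with the 20% mitochondrial limit (log2 ratio 0.83 against 1.04), the 200-gene minimum (0.94), 5 CPM added (0.79), median-of-ratios scaling (0.997) and Leiden clusters (0.14), and the higher myeloid markers of that class are given above.

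*Il6st*, the shared subunit gp130, was highest in endothelial cells, at 2471 UMIs (935 CPM, 898 to 973) with PBS and 666 UMIs (1364 CPM, 1263 to 1472) with anti–PD-1, a ratio of 1.46 (1.34 to 1.59). This direction did not hold when cells were thinned to 1000 UMIs (log2 ratio -0.031, from 499 and 91 cells, against 0.55). CAFs were next, at 275 and 223 CPM (0.813, 0.694 to 0.951), followed by mature dendritic cells (160.3 and 92.6 CPM), where the log2 ratio of -0.79 became 1.21 after thinning (77 and 61 cells). Macrophages (25.8 and 24.4 CPM) and tumor/biliary cells (53.5 and 51.7 CPM) had near equal levels in both libraries. T cells had 409 UMIs (37.6 CPM) and 831 UMIs (52.6 CPM), a ratio of 1.40 (1.24 to 1.58). In the main setting *Il6st* was 2-fold different in none of 15 classes. T cells passed 2-fold with the stricter gate (log2 ratio 1.07 against 0.49). NK cells passed it downwards among those with Y-linked UMIs and none of *Xist* (-1.25 against -0.70).

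In all kept cells together *Il6st* was nevertheless lower with anti–PD-1, at 76.9 against 47.3 CPM. The endothelial class had gone from 547 cells (3.52% of kept cells) to 106 cells (0.648%), and its part of all *Il6st* UMIs from 40.6% to 18.1%.

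*Osmr*, the OSM receptor subunit, was found in the non-immune classes. Tumor/biliary cells had 558 UMIs (83.1 CPM, 76.3 to 90.3) with PBS and 158 UMIs (52.7 CPM, 44.8 to 61.6) with anti–PD-1, a ratio of 0.634 (0.528 to 0.758). The Leiden clusters named for this class held 1140 and 1483, 568 and 45 and 269 and 151 cells. The make-up of the class thus differed between the libraries, and its part in the tumor/biliary ratios of any member was not tested. CAFs (98.9 and 93.9 CPM) and endothelial cells (76.1 and 71.7 CPM) had ratios of 0.949 (0.736 to 1.22) and 0.943 (0.639 to 1.35). The compared immune classes were at 9.27 CPM or below. In B cells (9.27 and 1.88 CPM), T cells (4.96 and 1.65 CPM) and monocytes (5.80 and 1.96 CPM) *Osmr* was at least 2-fold lower with anti–PD-1, from 20 and 10, 54 and 26 and 21 and 5 UMIs, and with 5 CPM added the difference was short of 2-fold in T cells and monocytes. It also fell short in T cells with the stricter gate (log2 ratio -0.74 against -1.59) and in monocytes with a mean over cells (-0.67 against -1.57). The sum of *Osmr* over all kept cells was at 18.2 and 6.12 CPM, and its part in these low values was not tested. The ligand *Osm* and its receptor subunit therefore stood in different classes, *Osm* in neutrophils, monocytes and macrophages and *Osmr* in tumor/biliary cells, CAFs and endothelial cells.

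**Figure D4:**
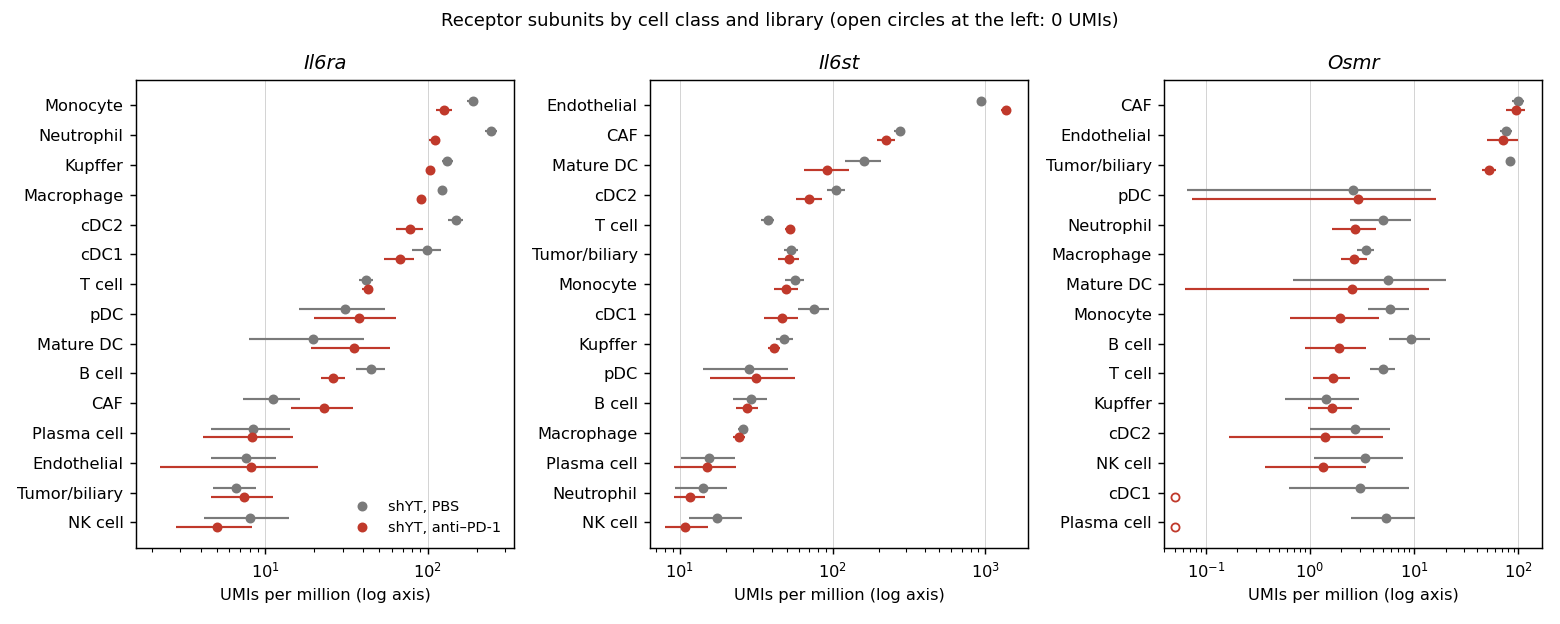
*Il6ra* (left), *Il6st* (middle) and *Osmr* (right) CPM (log axes) in 15 cell classes (rows, ordered by anti–PD-1 level) for the PBS (grey) and anti–PD-1 (red) libraries, with 95% Poisson intervals and open circles for 0 UMIs. *Il6ra* lies highest in myeloid classes with the PBS point to the right in neutrophils (245 against 109.9), *Il6st* in endothelial cells (935 and 1364), and *Osmr* in CAFs, endothelial and tumor/biliary cells.

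*Socs3*, the feedback inhibitor of gp130 signalling, was higher with anti–PD-1 in most classes, with the largest ratios in CAFs, tumor/biliary and endothelial cells, of which that in tumor/biliary cells was smaller with the stricter gate. That gate left 53 and 8 CAFs and 160 and 16 endothelial cells, so it gave no value for these classes. CAFs had 91 UMIs (39.0 CPM, 31.4 to 47.9) with PBS and 251 UMIs (262 CPM, 231 to 296) with anti–PD-1, a ratio of 6.72 (5.27 to 8.64). Of the 251 UMIs, 9 of 176 cells held 52.2% and 1 cell held 44, so this interval is too narrow. Tumor/biliary cells had 138 UMIs (20.6 CPM) and 334 UMIs (111 CPM), a ratio of 5.42 (4.43 to 6.66), or a log2 ratio of 2.44 that was 1.37 with the stricter gate (510 and 170 cells), below the 1.71 of macrophages. Endothelial cells had 257 UMIs (97.2 CPM) and 247 UMIs (506 CPM), a ratio of 5.20 (4.35 to 6.22). After thinning, a *Socs3* UMI was found in 3.00% and 19.0% of CAFs, 2.11% and 7.75% of tumor/biliary cells and 9.42% and 26.4% of endothelial cells. Beside these values, summed neutrophil markers were at 173 and 891 CPM in tumor/biliary and 317 and 1401 CPM in endothelial cells (8 of 9 higher in each). Kupffer markers were at 78.0 and 310 CPM and 116 and 422 CPM (6 of 6 higher), and macrophage markers at 376 and 706 CPM and 566 and 940.2 CPM (5 of 7 higher). The part of these cells, and of those in the CAF class given above, in the *Socs3* values was not tested.

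Macrophages held the most *Socs3* UMIs, 3388 (106 CPM, 103 to 110.1) with PBS and 6276 (349 CPM, 340.5 to 358) with anti–PD-1, a ratio of 3.28 (3.14 to 3.42). The ratio was 3.82 (2.21 to 7.23) in macrophages with at least 10 *Prg4* UMIs (129 and 493 CPM) and 3.21 (3.07 to 3.35) in the others (106 and 341 CPM). NK cells (34.2 and 92.4 CPM), Kupffer cells (29.8 and 69.7 CPM), mature dendritic cells (53.4 and 148 CPM) and pDC (23.3 and 80.6 CPM) were also at least 2-fold higher, the Kupffer cells except with the stricter gate (log2 ratio 0.14) and after thinning (0.78), against 1.23. Monocytes (126 and 226 CPM) and T cells (62.3 and 108 CPM) had ratios of 1.79 and 1.74. *Socs3* was measured in 15 classes, was at least 2-fold higher in 8 and had an interval above 1 in 13. Of the 8, pDC and mature dendritic cells were measured only through their anti–PD-1 UMIs.

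Neutrophils were the class in which *Socs3* was lower with anti–PD-1, at 597 UMIs (300.0 CPM, 276 to 325) against 1465 UMIs (221 CPM, 210.3 to 233), a ratio of 0.738 (0.671 to 0.813). The log2 ratio of -0.44 became -0.08 with median-of-ratios scaling. *Stat3*, the transcription factor itself, differed less, with ratios from 0.816 in endothelial cells (158 and 129 CPM) to 1.60 in NK cells (154 and 246 CPM). T cells (155 and 221 CPM) had a ratio of 1.43 (1.35 to 1.51) and macrophages (104 and 135 CPM) of 1.30 (1.23 to 1.37), and no class of 15 reached 2-fold. The interval lay above 1 in 9 of the 15 and below 1 in none, and over all kept cells the ratio was 1.41 (1.38 to 1.45).

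**Figure D5:**
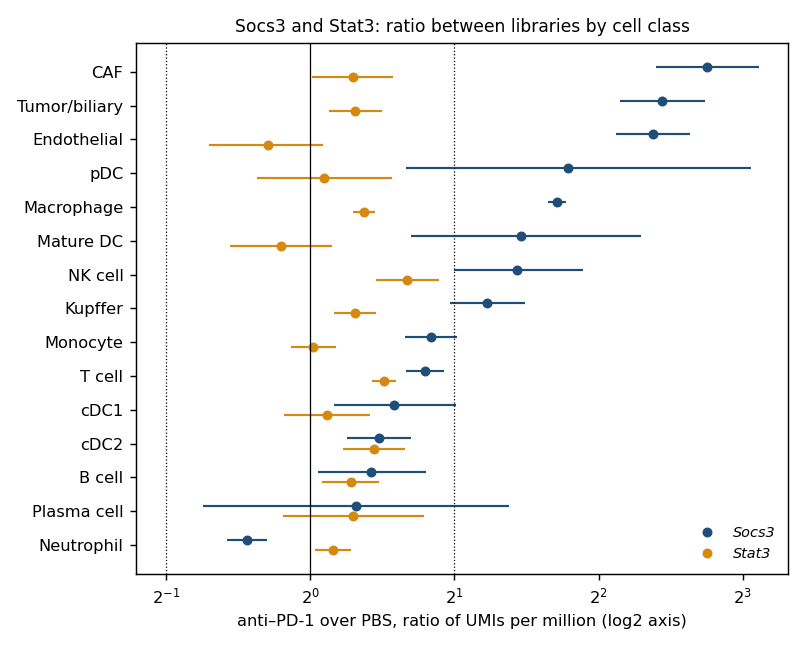
Ratio (anti–PD-1 over PBS, horizontal log2 axis) of *Socs3* and *Stat3* CPM in 15 cell classes, with 95% intervals of counting error and dotted lines at 2-fold either way. *Socs3* is past 2-fold in 8 classes, with CAFs (6.72-fold), tumor/biliary (5.42-fold) and endothelial cells (5.20-fold) farthest to the right and neutrophils (0.738) left of 1, and every *Stat3* point lies inside the 2-fold lines.

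Set against all measured genes, the members' counts were as follows. In macrophages 4 of 8 members were at least 2-fold higher and 0 lower, while of all genes measured there 5.82% were 2-fold higher and 7.32% lower (44.3% of the 2-fold genes were higher, or 56.7% with median-of-ratios scaling). In Kupffer cells 3 of 7 were higher and 0 lower, against 5.3% and 3.4% of all genes (60.9% of the 2-fold genes higher, or 73.2%). In monocytes 3 of 8 were higher and 1 lower, against 5.28% and 6.91%. In neutrophils 2 of 7 were higher and 1 lower, against 4.67% and 15.5% (23.2% of the 2-fold genes higher, or 51.5%). The 3 higher in monocytes were the ligands, and *Il6* in neutrophils, T and tumor/biliary cells was at the reference level described above. In monocytes *Il6* and *Lif* had 5 PBS UMIs each and were measured only through their anti–PD-1 UMIs. The same holds for *Lif* in macrophages, *Osm* in Kupffer cells, and *Il6* in CAFs, T cells, tumor/biliary cells and neutrophils. In T cells 1 of 8 was higher and 1 lower, against 3.55% and 9.04% (28.2% of the 2-fold genes higher, or 42.8%). In tumor/biliary cells 3 of 8 were higher and 0 lower, against 6.25% and 6.63%. In CAFs 3 of 6 were higher and 0 lower, against 5.61% and 5.87%. The 3 include *Il6ra*, whose ratio of 2.06 fell short of 2-fold under several alternative settings. In endothelial cells 1 of 5 was higher and 0 lower, against 4.82% and 10%. Median-of-ratios scaling raised all log2 ratios by 0.36 in neutrophils, 0.19 in T cells, 0.17 in B, NK and Kupffer cells, 0.15 in macrophages, 0.13 in cDC2 and 0.11 in monocytes, and by under 0.1 either way elsewhere. The members were chosen with these values known, so nothing further is read from the counts.

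Other genes of the path were taken from lists of general knowledge. In macrophages, 8 of 16 measured genes known to respond to STAT3 were at least 2-fold higher with anti–PD-1 (median log2 ratio 1.03, against -0.18 for all genes measured). Among them were *Il10*, an anti-inflammatory cytokine (13.3 and 136 CPM), *Pim1*, a kinase (65.5 and 277 CPM), and *Saa3* (174 and 691 CPM). With anti–PD-1, *Saa3* was at 10750 CPM in the 64 macrophages with at least 10 *Prg4* UMIs described above and at 138 CPM in the others. Of 10 genes that induce *Il6* or control its mRNA, 7 were higher (median 1.56), with *Il1b* at 104 and 829 CPM, *Il1a* at 26.1 and 137 CPM and *Nfkbiz* at 92.6 and 551 CPM. Of the other family ligands 1 of 5 measured was at least 2-fold higher, *Il27* at 5.22 and 23.5 CPM, and 2 were lower, with 2 UMIs each with anti–PD-1 (median of the list 0.11). None of 4 other receptor subunits was 2-fold different, *Lifr* being at 48.1 and 32.3 CPM. In the feedback list 2 of 8 were higher, *Cish* (7.64 and 31.0 CPM) and *Socs1* (20.2 and 53.7 CPM). Of 9 JAK-STAT signalling genes measured, 1 was at least 2-fold higher and 0 lower (median 0.04).

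The values of a stress list and of an interferon-γ list are set beside those of the members, and their part in the members' values was not tested. In macrophages 10 of 15 early stress genes, which tissue dissociation is known to raise, were at least 2-fold higher (median log2 ratio 1.30), with *Nr4a1* at 111 and 678 CPM and *Fosb* at 104 and 544 CPM, as were 13 of 15 interferon-γ response genes (median 1.74). In CAFs the stress list had 11 of 15 higher (median 2.10) beside 6 of 15 STAT3 response genes higher, among them *Junb* (272 and 1290 CPM), and 1 lower, *Saa3* (153 and 67.8 CPM), with a median of 0.53. In endothelial cells it had 11 of 15 (median 1.86) beside 6 of 13 higher and 1 lower, *Timp1* (26.9 and 10.2 CPM), with a median of 0.74, and in tumor/biliary cells 11 of 15 (median 1.48) beside 8 of 16 higher (median 1.01). In the same classes the interferon-γ list had 11 of 14 higher in CAFs (median 1.69), 15 of 15 in endothelial cells (median 2.69) and 14 of 15 in tumor/biliary cells (median 2.98). In T cells the stress list had 4 of 15 higher (median 0.62) and in neutrophils 3 higher and 2 lower (median -0.03), while the interferon-γ list had 3 of 15 higher in T cells (median 0.33) and 12 of 15 in neutrophils (median 1.89). In Kupffer cells the stress list had 9 of 15 higher (median 1.19) and the interferon-γ list 13 of 15 (median 1.73). In monocytes these were 8 of 15 (median 1.00) and 14 of 15 (median 1.64). The lists thus did not differ alike over the classes.

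The acute phase genes that IL-6 is known to induce in hepatocytes could not be compared in hepatocytes themselves, which were 64 and 19 cells. In tumor/biliary cells, the nearest epithelial class, 8 of 11 were measured and 1 was at least 2-fold higher, *Hp* of haptoglobin (663 and 1544 CPM). The 2 that were lower were *Fgb* of fibrinogen (29.0 and 4.34 CPM) and *Hamp* of hepcidin (17.3 and 0.667 CPM). The summed hepatocyte markers in the same class were at 55.2 and 39.4 CPM, with 1 of 6 higher with anti–PD-1, and their part in these values was not tested.

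The genes whose levels followed each ligand and *Socs3* most closely were taken over the 30 class-by-library sums, which share libraries and so are not independent. *Il6* was most like *Gbp2b* (r = 0.797), *Cfb* (0.771) and *Ccl7* (0.738) among 14929 genes, and *Osm* was most like *Gk* (0.876), *Clec4e* (0.867) and *Slfn1* (0.822). *Socs3* was most like *Fosl2* (0.803), *Oasl2* (0.797) and *Ifit1* (0.789). *Lif* was most like *Pgk1* (0.659) and *Mif* (0.649). As *Lif* was at no more than 7.83 CPM in any of these sums, its r values depend on the 5 CPM added and on counting error. Between members, r was 0.595 for *Osm* and *Socs3*, 0.548 for *Osm* and *Il6ra* and 0.247 for *Il6* and *Osm*. It was 0.358 for *Il6* and *Lif* and 0.363 for *Osm* and *Lif*. These values mix differences between classes with the contrast between libraries on which the members were chosen. Most PBS levels of *Il6* also lay below the 5 CPM added. Whether the ligands share a pattern over classes is therefore not read from them.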

How the data were processed

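Mouse CCA libraries, 1 per group (2 in all), were grouped by the genotype and treatment in their labels. The authors deposited unnormalized UMI counts for every gene in every barcode, produced by the software of the Singleron kit on mm10, and Seurat 4.3 is named in the submitters' processing notes. Software version, annotation and strand handling are not given in the sources used here. The 8 members and all gene lists were chosen with earlier results of these data known.

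Cells were kept where 500 to 5000 genes were detected and mitochondrial UMIs made up no more than 10%. A cell entered a class when it held UMIs of at least 2 of the markers of that class and no other lineage scored above 75% of its score (907 PBS and 1433 anti–PD-1 cells were left out as mixed, and 366 and 306 for few markers). Mixed cells stood in for a doublet caller, and none was run. UMIs were summed per class and scaled to CPM, with exact Poisson, conditional binomial (ratios) and Clopper-Pearson (shares) intervals at 95%, which cover counting error only. No test was run, since 1 library per group allows none. A count of 0 was read as allowing up to 3 UMIs. Shares of cells were also taken after thinning to 1000 UMIs. Genes with at least 20 UMIs in a class counted as measured. Named genes were all members, up to 3 highest and 3 lowest of each list, and the 5 with the highest Pearson r of log2(CPM + 5) to a ligand or *Socs3* (genes with at least 100 UMIs). The genes that stood out beside *Prg4* and those set beside *Il6* in single cells were chosen after their values were seen or from the list of *Il6* inducers. Leiden clusters (28, resolution 1, 30 components, 15 neighbours, 2000 variable genes without the members) took a class name where at least 50% of their cells were gated to it (22 clusters). Some genes of the lists are not reported here. Code was tested on simulated data. Python 3.11.15, numpy 2.4.6, scipy 1.17.1, scikit-learn 1.9.0, scanpy 1.11.5 and leidenalg 0.10.2 were used.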

Additional observations from a re-analysis of the deposited data

Results flagged for a closer look

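Some classes differed in the opposite direction from others for the same gene. These differences between classes were not tested, since each group was 1 library. *Il6* had a ratio of anti–PD-1 over PBS of 0.389 in mature dendritic cells (16 and 7 UMIs), against at least 2-fold higher levels in 10 other classes, of which 6 were at or below the share of NK cells with a UMI and 4 above it. Of the 10, all but macrophages and Kupffer cells were measured only through their anti–PD-1 UMIs. *Il6ra* had a ratio of 0.449 in neutrophils, against 2.06 in CAFs, the 1 class where it was at least 2-fold higher, a call lost under 5 alternative settings. *Socs3* had a ratio of 0.738 in neutrophils, against at least 2-fold higher levels in 8 classes. In mature dendritic cells the 16 PBS *Il6* UMIs were in 3.90% of 77 cells and the 7 anti–PD-1 UMIs in 9.52% of 63 cells, so the order of the shares was opposite to that of the levels.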

How the results depend on the processing

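No paired analysis was possible because the labels give 1 library per group, and no replicate could be left out. Main log2 ratios were, in macrophages, 6.58 (*Il6*), -0.43 (*Il6ra*), 1.74 (*Osm*), 5.24 (*Lif*), 1.71 (*Socs3*) and 0.38 (*Stat3*), in tumor/biliary cells -0.66 (*Osmr*), and in endothelial cells 0.55 (*Il6st*). Values that moved beyond counting error were as follows. With 5 CPM added, *Il6* was 4.23, *Osm* 1.64 and *Lif* 1.09. With median-of-ratios scaling, *Il6ra* was -0.27, *Osm* 1.89, *Socs3* 1.87 and *Stat3* 0.53. With Leiden clusters, *Il6* was 5.21, *Osm* 1.86, *Socs3* 1.86 and *Il6st* 0.37. With a stricter gate, *Il6* was 5.46, *Lif* 3.36, *Stat3* 0.48 and *Osmr* -0.35. In the cells that held Y-linked UMIs but none of *Xist*, *Il6ra* was -0.54, *Osm* 1.37, *Lif* 3.65, *Socs3* 1.98, *Stat3* 0.48 and *Osmr* -0.39. After thinning, *Il6* was 7.50, *Il6ra* -0.71, *Osm* 2.06, *Osmr* -0.27 and *Il6st* -0.031. With a mean over cells, *Il6ra* was -0.54, *Socs3* 1.57, *Stat3* 0.46 and *Il6st* 0.22. Chosen after seeing the data, macrophages without *Clec4f* gave *Il6* 7.65, *Osm* 1.90 and *Socs3* 1.93, and those with under 10 *Prg4* UMIs gave *Il6* 5.61. The cause was not tested for any of these. Over classes, 27 of 93 finite member ratios were at least 2-fold higher and 5 at least 2-fold lower. Of all measured genes, 3.55% to 6.25% by class were higher and 3.4% to 15.5% lower. The members were chosen with these values known, so the counts are not read further. *Il6* in neutrophils and NK cells, with 0 PBS UMIs, had no finite ratio and was not followed here. Of the 27, 26 stayed so under each of the 20% mitochondrial limit, the 200-gene minimum, median-of-ratios scaling and the mean over cells. The number was 24 with 5 CPM, 23 of 25 after thinning, 20 of 22 with Leiden clusters, 9 of 11 with the stricter gate and 13 of 14 in Y-linked cells. Of 5 that were at least 2-fold lower, 3 stayed so with 5 CPM, 4 with median-of-ratios scaling or the mean over cells, 3 of 4 in Y-linked cells and 1 of 2 with the stricter gate. In Kupffer cells *Osm* was 0.67 with Leiden clusters and 0.37 with the stricter gate, and *Socs3* 0.14 and 0.78 (stricter gate, thinned). *Lif* in tumor/biliary cells ranged from -1.16 to 0.50, and *Il6ra* in CAFs was 0.14 with Leiden clusters. Of 510 counts of 2-fold genes, 461 stayed within 1.5 times the main count. In macrophages, 855 genes were higher (340 with 5 CPM) and 1076 lower (45). Depth limits *Lif* and, with PBS, *Il6* outside Kupffer cells.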

Other observations

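Basophils and mast cells, 22 PBS and 20 anti–PD-1 cells and thus below the 50 needed for a comparison, had the highest levels of 2 ligands per UMI of any gated class. *Il6* had 15 UMIs (255 CPM, 143 to 420.4) with PBS and 108 UMIs (1194 CPM, 979 to 1441) with anti–PD-1, and *Osm* had 16 UMIs (272 CPM) and 65 UMIs (718 CPM). An *Il6* UMI was found in 36.4% and 55.0% of these cells. The class held 6.94% and 2.38% of all *Il6* UMIs of its library. Mesothelial cells (39 and 23 cells) had *Il6st* at 202 and 152 CPM and *Osmr* at 74.9 and 95 CPM.

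Among T cells with a *Foxp3* and no CD8 UMI, *Foxp3* being the factor of regulatory T cells (246 and 241 cells), *Il6st* had 42 UMIs (39.6 CPM, 28.5 to 53.5) with PBS and 110 UMIs (92.2 CPM, 75.8 to 111) with anti–PD-1, a ratio of 2.33 (1.62 to 3.41), and 4.53% and 11.2% of thinned cells had a UMI. *Il6ra* in the same cells was at 21.7 and 41.9 CPM (1.93, 1.16 to 3.32) and *Stat3* at 168 and 276 CPM (1.65, 1.37 to 1.99). T cells with a *Cd4* UMI and none of *Foxp3* or CD8 had *Il6st* at 39.1 and 57.5 CPM and *Il6ra* at 68.0 and 67.4 CPM, and T cells with a CD8 UMI and none of *Cd4* or *Foxp3* had *Il6st* at 35.4 and 44.8 CPM and *Il6ra* at 39.7 and 29.3 CPM. Differences between these subsets were not tested.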
